A study of Mus musculus with 12 samples.

Results

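The 45 genes of antioxidant and glutathione defence were followed in MIN6 cells, an insulin-secreting line derived from a mouse insulinoma, under low or high glucose and with or without trimethylamine N-oxide (TMAO), a metabolite that the liver makes from the trimethylamine of gut microbes. The genes were taken by symbol, and all 45 were found among the 54022 genes of the deposited tables. The 4 conditions were low glucose with vehicle, low glucose with TMAO, high glucose with vehicle and high glucose with TMAO, each with 3 libraries that the submitters call biological replicates. TMAO was given at 100 nM for 18 h. The scheme of the study then shows a fast of 1 h before glucose was added at 2.8 mM (the low level) or 16.8 mM (the high level), and it gives no duration for the stimulation. All cells belonged to a single line and were wild type in that no gene was edited for these conditions. The maintenance medium given in the paper held more glucose than the high level. It also held β-mercaptoethanol, itself a reducing thiol. Messenger RNA was sequenced as a measure of transcript level. Protein, enzyme activity and reactive oxygen species are not analysed here.

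Reactive oxygen species leak from mitochondrial respiration and from oxidative protein folding, and a β-cell that makes insulin runs both at a high rate. Superoxide dismutases turn superoxide into hydrogen peroxide. Catalase, glutathione peroxidases and peroxiredoxins then remove the peroxide, with electrons that pass from NADPH through glutathione or thioredoxin. NRF2, encoded by Nfe2l2, is the transcription factor that switches on many of these genes. KEAP1 holds NRF2 in the cytoplasm and marks it for degradation until oxidants or electrophiles modify its cysteines. Islet β-cells are known for little catalase and little glutathione peroxidase in comparison with liver.

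The libraries held 16793162 to 22340542 counted fragments (median 18874700). The 45 genes took 0.343% to 0.365% of the counts of a library. Of the 45, 41 passed the filter on low counts and were tested, within a fit of 16222 genes. Gpx3, Gpx7, Gpx8 and Mgst1 did not pass. The β-cell markers fixed for the check (Ins1, Ins2, Pdx1, Nkx6-1, Mafa, Neurod1, Slc2a2, Slc30a8, G6pc2, Iapp and Ucn3) were all at 1 FPKM (fragment counts scaled to gene length and library size) or more in every library. Of the markers of other cell types, only Gcg of the α-cell list, Krt7 of the duct list and Cd68 of the leukocyte list were above 1 FPKM in all 12 libraries. The summed α-cell markers were 199.9 to 216.0 FPKM in the low-glucose libraries and 222.0 to 227.7 FPKM in the high-glucose libraries. The summed leukocyte markers were 2.88 to 4.14 FPKM at low glucose and 4.18 to 4.88 FPKM at high glucose. At low glucose the leukocyte sum also differed between vehicle (2.88 to 3.62 FPKM) and TMAO (3.87 to 4.14 FPKM) without overlap. The part of both sums in the results below was not tested. The summed δ-cell, γ-cell, acinar, fibroblast and endothelial markers stayed at or under 2.11 FPKM in every library, and the duct list held 19.1 to 22.7 FPKM with 2 of its 3 genes at 0. The summed β-cell markers overlapped between the glucose levels, at 39934 to 45635 FPKM and 44371 to 47467 FPKM. In bulk libraries of this kind, fewer cells of a type and less RNA per cell cannot be told apart.

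Transcript levels were spread widely over the 45 genes. On the FPKM scale, counts are divided by 1 deposited length per gene, such as 646 bases for Sod1 and 8772 for Glrx2. Whether these lengths match the transcripts present was not tested, so orders between genes hold on this scale only. By mean counts Txnrd1 (7494) was above Sod1 (5786.5). In FPKM, cytosolic superoxide dismutase Sod1 had the highest level, with a lowest library of 446.8, a median of 473.0 and a highest of 496.5 FPKM. Thioredoxin Txn1, the main cytosolic carrier of electrons to peroxiredoxins, came next at a mean of 110.6 FPKM. No library of Txn1 reached the lowest library of Sod1. Taldo1 (transaldolase of the pentose phosphate pathway) averaged 88.9 FPKM, Park7 (the redox sensor DJ-1) 82.9, Prdx2 79.1, Gpx1 76.9, Prdx1 71.1 and Gpx4 67.0 FPKM. From Taldo1 to Gpx4, each neighbour in this order overlapped the next one in its 12 libraries, so the order within this stretch was not resolved. Over the whole order of 45 genes, 11 of the 44 neighbouring pairs did not overlap. In all, 28 genes averaged 10 FPKM or more and 7 averaged under 1 FPKM.

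**Figure D1:**
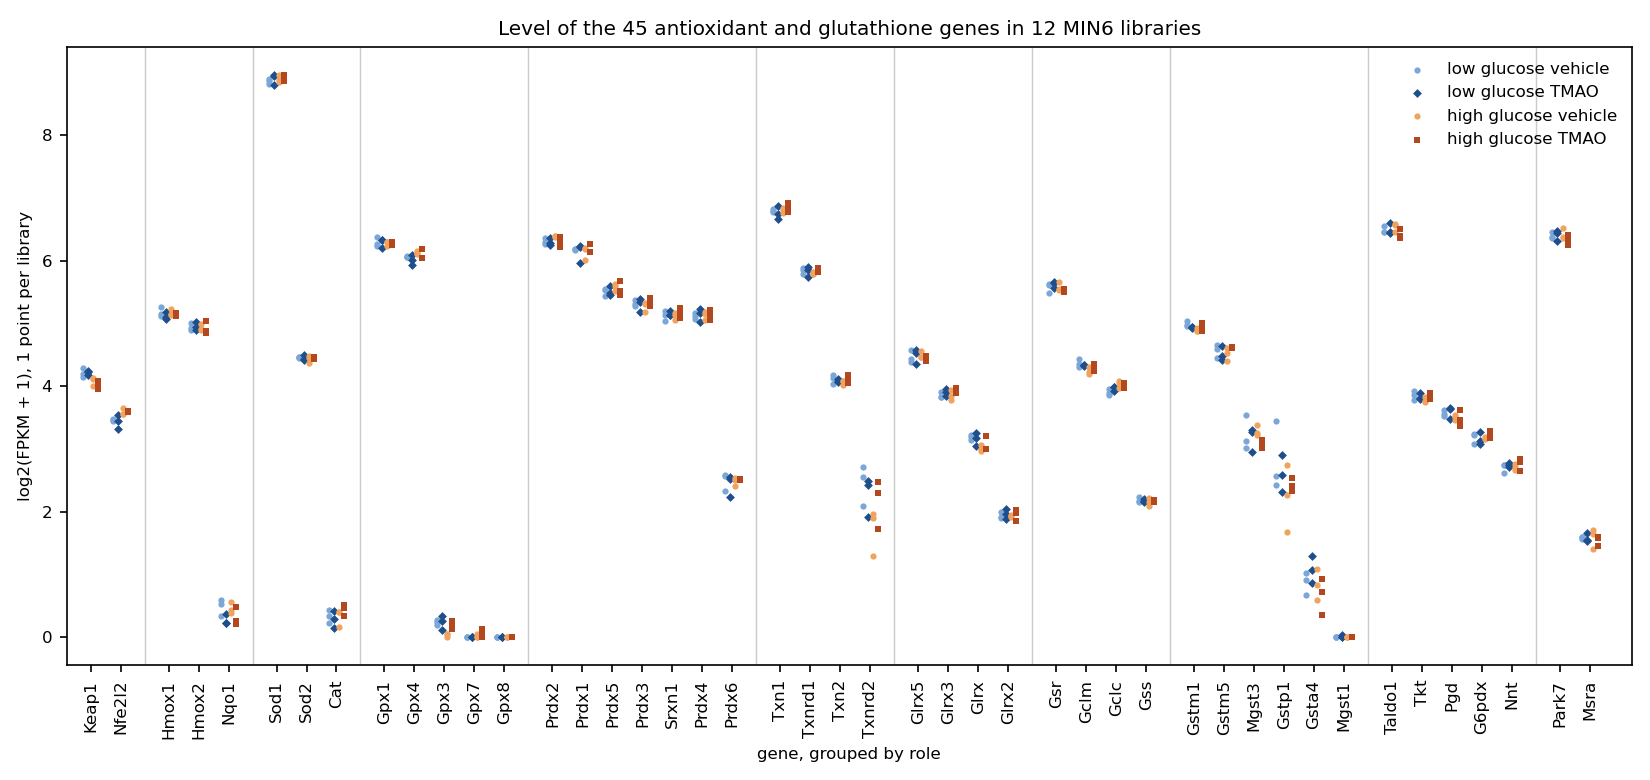
Level of each gene as log2(FPKM + 1) on the y axis, with 1 point per library in each of the 4 conditions and the genes on the x axis grouped by role. Sod1 stands above all others, catalase (Cat), Nqo1 and Gpx3 lie near the floor, and Gpx8 is at 0 counts in all 12 libraries.

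The enzymes that remove hydrogen peroxide were unequal. Catalase had 5 to 19 counts per library and a mean of 0.270 FPKM, in contrast to the peroxiredoxins, whose means ran from 4.60 FPKM for Prdx6 to 79.1 FPKM for Prdx2. The mitochondrial peroxiredoxin Prdx3 averaged 38.7 FPKM, Prdx4 of the endoplasmic reticulum 34.1 and Prdx5 45.4 FPKM. Sulfiredoxin Srxn1, which restores over-oxidised peroxiredoxins, averaged 34.3 FPKM. Among the glutathione peroxidases, cytosolic Gpx1 and the lipid peroxidase Gpx4 carried nearly all of the signal. Secreted Gpx3 had 0 to 9 counts, and Gpx7 had at most 2. Gpx8 had 0 counts in each library, which in the shallowest library allows a share of up to 1.79e-05% of the counts (3 counts, counting error only). Reads of Gpx4 may be split with a copy: the transcribed pseudogene Gpx4-ps2 held 449 to 654 counts per library beside 1947 to 2503 for Gpx4. How alike these sequences are was not examined, so the values of Gpx4 may be uncertain to that extent.

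Of the 45 genes, 5 have an annotated selenocysteine codon in GENCODE M21 (GRCm38), the amino acid that carries out catalysis in these peroxidases and reductases. It is written by TGA, which elsewhere is a stop. These coding stretches are shown because 3 of the 5 genes (Gpx1, Gpx4 and Txnrd1) were among the 9 highest of the 45 in FPKM. Each runs 5′ to 3′ with the selenocysteine codon in capitals and 5 codons on either side, or up to the stop codon where that comes first:
Gpx1: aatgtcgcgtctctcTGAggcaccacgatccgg
Gpx3: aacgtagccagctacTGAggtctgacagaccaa
Gpx4: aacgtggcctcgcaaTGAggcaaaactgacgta
Txnrd1: ctccagtctggctgcTGAggttaa
Txnrd2: actgtgactggttgcTGAggctaa
In the peroxidases the codon lies inside the reading frame, at codon 47 of 201 in Gpx1. In both thioredoxin reductases it is the last codon but 1, followed by a glycine codon and the stop (codon 526 of 527 in Txnrd2).

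Thioredoxin reductase differed between its compartments. Cytosolic Txnrd1 averaged 55.8 FPKM and stayed between 52.3 and 58.4 FPKM in all libraries. Mitochondrial Txnrd2 averaged 3.61 FPKM and ran from 1.44 to 5.58 FPKM, with a coefficient of variation within conditions of 29.0%, the highest among the 37 genes with a mean of at least 100 counts. The median over these 37 genes was 4.77% and the lowest was 2.57% (Sod2, the mitochondrial superoxide dismutase).

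For glutathione itself, the modifier subunit of glutamate-cysteine ligase, Gclm, averaged 18.8 FPKM, the catalytic subunit Gclc 14.8 FPKM and glutathione synthetase Gss 3.50 FPKM. No library of Gclc reached the lowest library of Gclm. Glutathione reductase Gsr, which returns oxidised glutathione to its reduced form, averaged 46.6 FPKM. Of the glutathione transferases, Gstm1 was highest at 29.7 FPKM, Gstm5 followed at 22.5 FPKM, and microsomal Mgst1 had 1 count in all 12 libraries together. NADPH is supplied by G6pdx (8.11 FPKM) and Pgd (10.6 FPKM) of the pentose phosphate pathway and by mitochondrial transhydrogenase Nnt (5.64 FPKM). Nqo1, a quinone reductase often read as an NRF2 target, had only 4 to 15 counts per library, whereas heme oxygenase Hmox1, another such target, averaged 34.6 FPKM.

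For high against low glucose, averaged over vehicle and TMAO, 2 of the 41 tested genes were called, beside 8.19% of all genes, so the share among these genes was not above the background. They were Keap1, at 0.889-fold, and Nfe2l2, at 1.11-fold, and none of the 39 other tested genes passed the test. Keap1 (ENSMUSG00000003308, mm10 chromosome 9, 21229730 to 21239361, minus strand) fell and Nfe2l2 (ENSMUSG00000015839, mm10 chromosome 2, 75675513 to 75704641, minus strand) rose. The test was edgeR's quasi-likelihood F test, with p-values adjusted over the 16222 genes tested and a call at an adjusted p under 0.05.

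Keap1 read 18.6, 16.7 and 17.4 FPKM at low glucose with vehicle and 17.6, 17.04 and 17.9 FPKM at low glucose with TMAO. At high glucose it read 16.6, 15.1 and 16.4 FPKM with vehicle and 15.9, 15.05 and 14.5 FPKM with TMAO. All 6 high-glucose libraries were below all 6 low-glucose libraries. Averaged over vehicle and TMAO, the log2 fold change for high against low glucose was -0.17 (SE 0.039, 0.889-fold, adjusted p = 0.00379). Within TMAO-treated cells it was -0.21 (SE 0.055, adjusted p = 0.0270), and within vehicle-treated cells -0.13 (SE 0.055, adjusted p = 0.263), which did not pass. The difference between these effects was -0.08 (95% CI -0.24 to 0.08, adjusted p = 0.9998), so the glucose effect on Keap1 was not shown to differ with TMAO. The long RNA gene Gm16754 overlaps Keap1 exons on the opposite strand over 510 bases, with a mean of 14.2 counts beside 1470 for Keap1.

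Nfe2l2 read 9.90, 9.9995 and 10.2 FPKM at low glucose with vehicle and 9.85, 10.6 and 8.92 FPKM at low glucose with TMAO. At high glucose it read 11.5, 10.7 and 10.7 FPKM with vehicle and 11.02, 10.97 and 11.2 FPKM with TMAO. All 6 high-glucose libraries were above all 6 low-glucose libraries, although the closest (10.7 against 10.6 FPKM) nearly touched. The averaged log2 fold change was 0.16 (SE 0.045, 1.11-fold, adjusted p = 0.0284). It was 0.14 (SE 0.064, adjusted p = 0.358) with vehicle and 0.18 (SE 0.064, adjusted p = 0.153) with TMAO, neither of which passed. The call for Nfe2l2 was lost on leaving out low-glucose vehicle replicate 1 or 2, low-glucose TMAO replicate 3, high-glucose vehicle replicate 1, or high-glucose TMAO replicate 2 or 3, with adjusted p between 0.0546 and 0.0914. The averaged call for Keap1 held with each of the 12 libraries left out, and its call within TMAO-treated cells was lost without low-glucose TMAO replicate 1 or 3 or high-glucose TMAO replicate 2 or 3 (adjusted p between 0.0814 and 0.176).

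The ratio of Nfe2l2 to Keap1, both in FPKM, describes the pair together. It was 0.572 ± 0.036 (SD, n = 3) at low glucose with vehicle, 0.560 ± 0.063 at low glucose with TMAO, 0.688 ± 0.031 at high glucose with vehicle and 0.732 ± 0.040 at high glucose with TMAO. Since it is made of the values above, it adds no separate evidence.

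**Figure D2:**
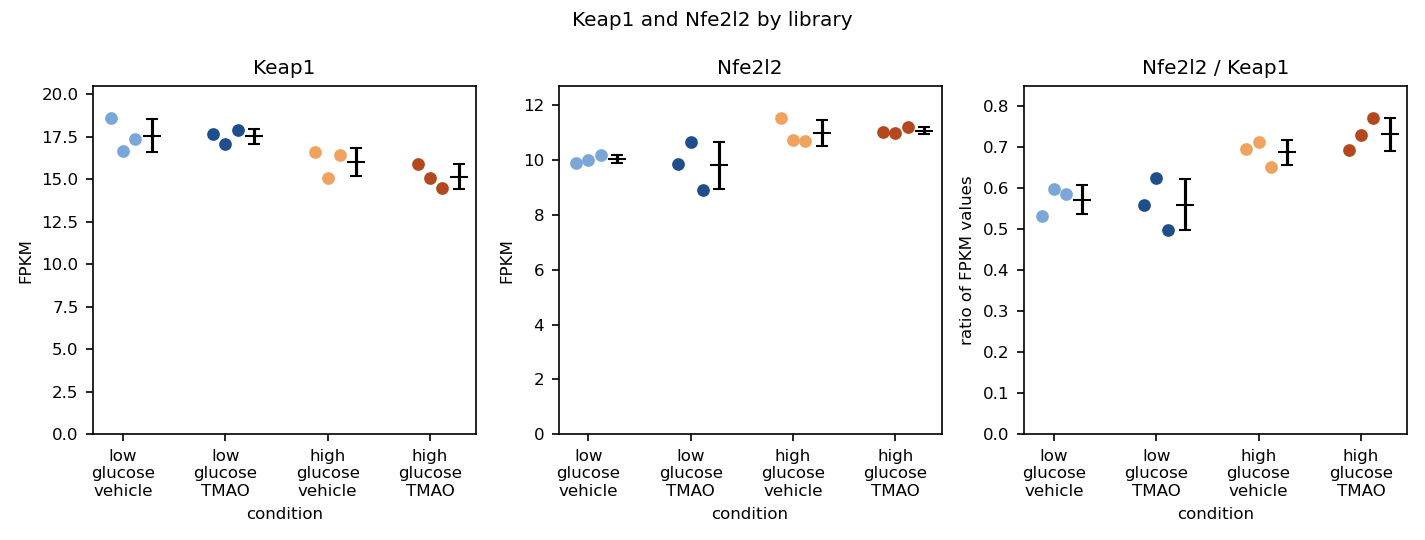
FPKM of Keap1 and of Nfe2l2 and the ratio of the 2 values (y axes from 0) in the 4 conditions (x axis); points are libraries, and the bar beside them is the mean with its SD (n = 3). The high-glucose libraries of Keap1 lie below and those of Nfe2l2 above all low-glucose libraries.

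The 250 bases before the RefSeq start of each gene (GRCm38.p6) are shown because NRF2 binds antioxidant response elements, whose core letters were searched here as TGACNNNGC on both strands. A match is in capitals:
Nfe2l2, chr2:75704664-75704913, minus strand: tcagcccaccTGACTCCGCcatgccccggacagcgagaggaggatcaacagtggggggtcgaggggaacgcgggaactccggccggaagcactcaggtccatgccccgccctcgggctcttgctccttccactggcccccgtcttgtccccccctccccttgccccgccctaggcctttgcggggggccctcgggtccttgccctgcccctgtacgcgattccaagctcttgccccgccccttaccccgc
Keap1, chr9:21239333-21239582, minus strand: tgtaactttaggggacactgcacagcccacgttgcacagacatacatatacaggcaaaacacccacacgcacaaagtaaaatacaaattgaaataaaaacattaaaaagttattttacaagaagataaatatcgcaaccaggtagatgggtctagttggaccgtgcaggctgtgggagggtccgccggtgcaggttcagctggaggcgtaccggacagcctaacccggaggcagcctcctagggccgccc
The Nfe2l2 window holds 1 match, 240 to 232 bases before the start, and is 70.4% G and C. The Keap1 window is 49.6% G and C and holds no match, which says only that these letters are not in this window. A window was given for 38 of the 45 genes. In 8 of the 38 (21.1%) at least 1 window held the core, namely G6pdx, Gclm, Gstm5, Mgst1, Nfe2l2, Prdx1, Sod1 and Txnrd1, beside 11.5% of the 27025 genes with a window. The AP-1 letters TGANTCA were in windows of 5 of the 38 (13.2%), Glrx, Gstm5, Gstp1, Prdx1 and Srxn1, beside 7.82% of all genes. The stretches around the match (15 bases on either side) are shown for 4 genes that NRF2 is known to regulate, and in each the core reads on the opposite strand, as GCNNNGTCA:
Gclm, chr3:122245408-122245446, plus strand: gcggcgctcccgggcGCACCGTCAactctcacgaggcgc
Txnrd1, chr10:82859099-82859137, plus strand: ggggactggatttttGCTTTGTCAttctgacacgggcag
Prdx1, chr4:116685451-116685489, plus strand: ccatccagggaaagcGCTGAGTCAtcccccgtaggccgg
G6pdx, chrX:74428914-74428952, minus strand: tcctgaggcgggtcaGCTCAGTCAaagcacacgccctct
In Prdx1 the match overlaps an AP-1 match. None of these 4 genes was called for glucose or for TMAO.

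Of the 2 genes called for glucose averaged over the treatments, 1 was higher and 1 lower. The same 2 genes were those without overlap between the 6 high-glucose and the 6 low-glucose libraries, beside 5.01% of all genes. With vehicle alone 0 of 41 were called (background 3.3%), with 6 at an unadjusted p under 0.05 in edgeR (13% of all genes) and 0 called by DESeq2 or limma. With TMAO alone 1 of 41 was called (background 3.64%), Keap1, which DESeq2 also called (adjusted p = 0.0217) and limma did not (adjusted p between 0.0796 and 0.182 in its 3 settings). The median log2 fold change of the 41 was -0.01 and that of all genes 0.00. Among the 37 genes with at least 100 counts, the median size of the change was 0.03 on the log2 scale, beside 0.05 for the 11149 genes at that depth. For 36 of the 41 genes the 95% confidence interval of the averaged glucose effect lay inside a 1.2-fold change in either direction.

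**Figure D3:**
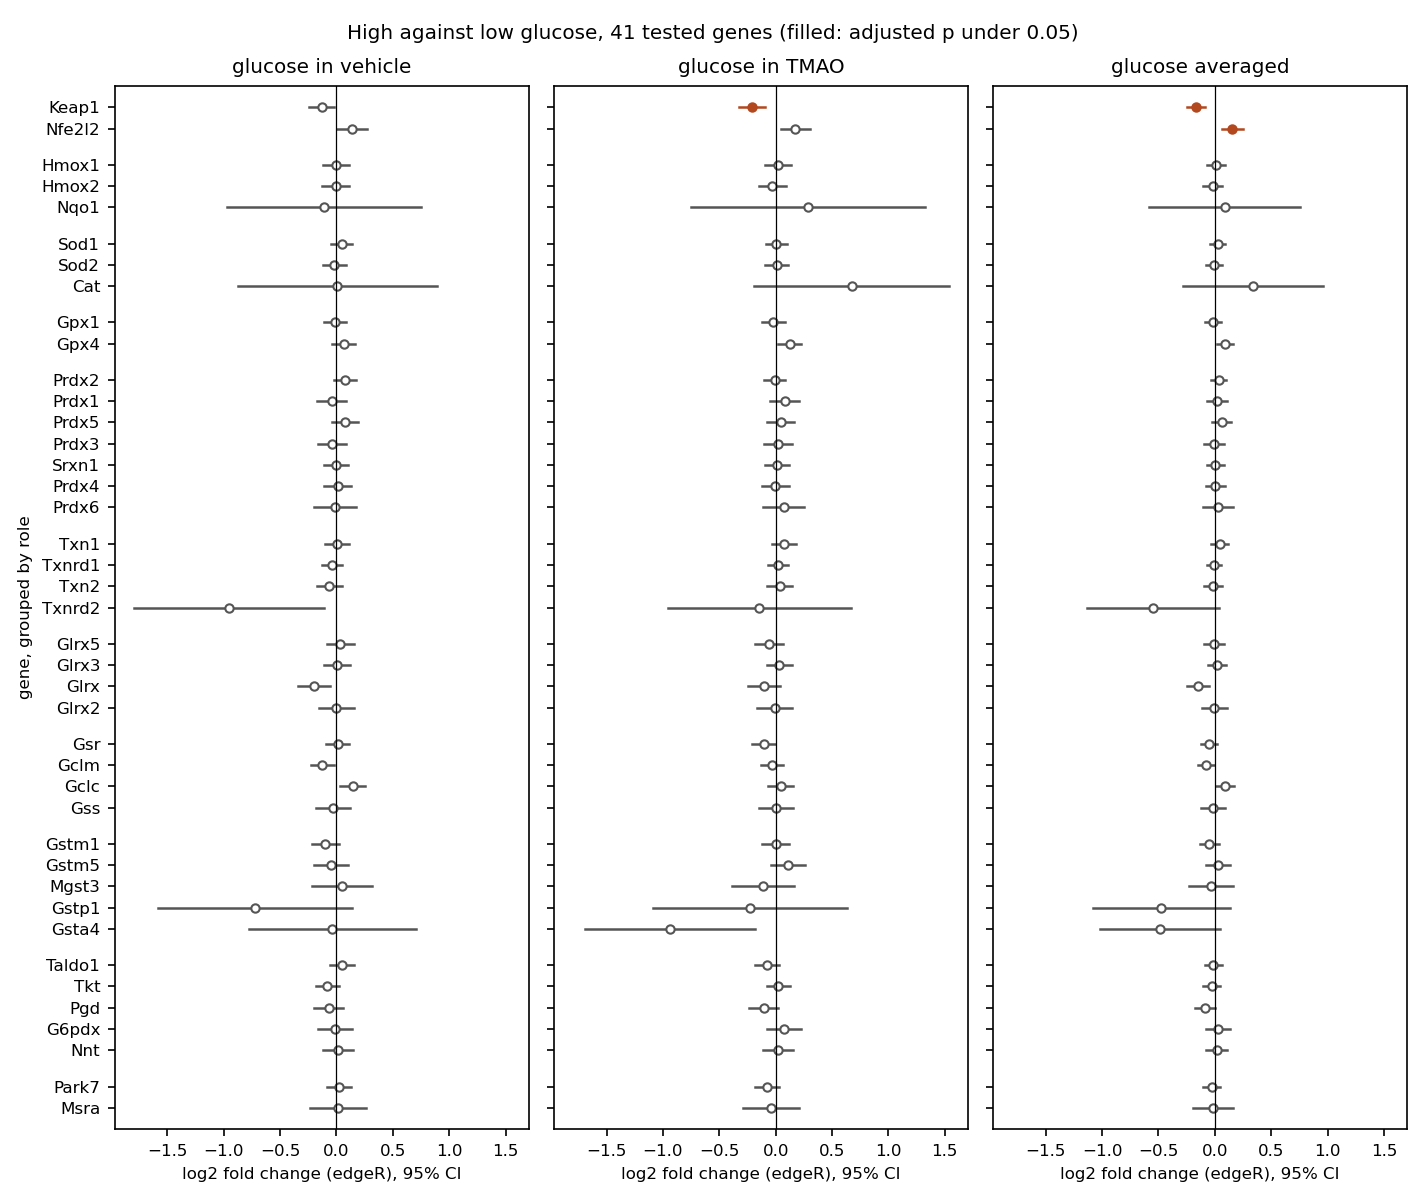
Log2 fold change for high against low glucose (x axis, edgeR) with its 95% confidence interval for the 41 tested genes (y axis, grouped by role), within vehicle, within TMAO and averaged. Filled points have an adjusted p under 0.05 and are Keap1 in the TMAO and averaged panels and Nfe2l2 in the averaged panel, while most others lie close to 0.

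After the 2 called genes, the lowest p-values for glucose averaged were, in order, those of Glrx, Gpx4, Gclc, Gclm, Pgd and Txnrd2, and none of these 6 passed. Glutaredoxin Glrx, which removes glutathione from oxidised protein cysteines, read 8.16, 7.80 and 8.31 FPKM (low glucose, vehicle), 8.502, 8.04 and 7.27 FPKM (low, TMAO), 6.78, 7.34 and 6.99 FPKM (high, vehicle) and 8.20, 6.97 and 7.03 FPKM (high, TMAO). The low-glucose libraries (7.27 to 8.502 FPKM) and the high-glucose libraries (6.78 to 8.20 FPKM) overlapped over much of their ranges. The vehicle libraries alone did not overlap between the glucose levels, and the TMAO libraries did. The log2 fold change was -0.20 (SE 0.069, adjusted p = 0.139) with vehicle and -0.10 (SE 0.069, adjusted p = 0.535) with TMAO, and neither passed. Averaged, it was -0.15 (SE 0.049, adjusted p = 0.0514). Glrx did pass with library totals alone (adjusted p = 0.0368), with no filter on low counts (adjusted p = 0.0190), and without low-glucose TMAO replicate 3, high-glucose vehicle replicate 2 or high-glucose TMAO replicate 1 (adjusted p between 0.0120 and 0.0435), and it was not called by DESeq2 or limma. The other 3 glutaredoxins had averaged changes between -0.01 and 0.02.

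The subunits of glutamate-cysteine ligase, the rate-limiting enzyme of glutathione synthesis, had estimates of opposite sign, and neither was called. Gclc read 13.6, 14.5 and 13.8 FPKM at low glucose with vehicle, 14.9, 14.9 and 14.2 with TMAO, 15.5, 15.9 and 14.7 at high glucose with vehicle and 14.9, 15.6 and 14.7 with TMAO, a log2 difference of 0.09 (SE 0.039, adjusted p = 0.154). Gclm read 20.7, 19.4 and 18.7 FPKM at low glucose with vehicle, 19.1, 19.2 and 18.9 with TMAO, 17.3, 18.8 and 17.6 at high glucose with vehicle and 19.4, 17.9 and 18.6 with TMAO, a log2 difference of -0.08 (SE 0.035, adjusted p = 0.191). Both sets of libraries overlapped between the glucose levels.

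Gpx4 read 66.7, 65.9 and 65.7 FPKM at low glucose with vehicle, 67.1, 63.5 and 60.3 with TMAO, 70.3, 67.8 and 68.7 at high glucose with vehicle and 71.5, 64.8 and 71.8 with TMAO. Its averaged change of 0.09 (SE 0.035, adjusted p = 0.110) did not pass. Pgd, the second NADPH-producing step of the pentose phosphate pathway, read 10.8, 11.4 and 10.5 FPKM at low glucose with vehicle, 11.6, 10.1 and 11.4 with TMAO, 10.7, 10.01 and 10.4 at high glucose with vehicle and 11.3, 10.03 and 9.35 with TMAO (-0.09, SE 0.045, adjusted p = 0.273). The low- and high-glucose libraries of both genes overlapped.

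Txnrd2 had the lowest averaged estimate of the 41 genes and the widest spread among those with 100 counts. It read 5.58, 3.27 and 4.88 FPKM at low glucose with vehicle, 4.61, 2.77 and 4.38 with TMAO, 1.44, 2.74 and 2.89 at high glucose with vehicle and 4.55, 2.31 and 3.93 with TMAO. The vehicle libraries did not overlap between the glucose levels and the TMAO libraries did. The log2 fold change was -0.96 (SE 0.368, adjusted p = 0.307) with vehicle, -0.14 (SE 0.355, adjusted p = 0.913) with TMAO and -0.55 (SE 0.256, adjusted p = 0.283) averaged, and none passed.

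Besides Gclc and Gclm, the NRF2 targets given by library whatever their values were Txnrd1, Srxn1, Hmox1 and Nqo1. None was called for glucose. Nqo1 differed by 0.09 on the log2 scale with a wide interval (95% CI -0.58 to 0.76). Txnrd1 differed by -0.01 (95% CI -0.07 to 0.05) on the log2 scale and Srxn1 by 0.00 (95% CI -0.07 to 0.08). Hmox1 differed by 0.01 (95% CI -0.07 to 0.09). Hmox1 read 33.7, 37.3 and 34.5 FPKM at low glucose with vehicle, 35.4, 33.3 and 32.7 with TMAO, 34.0, 34.5 and 36.6 at high glucose with vehicle and 34.6, 33.7 and 34.8 with TMAO. Txnrd1 read 57.8, 56.7 and 54.4 FPKM, then 56.7, 58.4 and 52.3, then 54.0, 55.8 and 54.1, then 55.4, 57.9 and 56.6 FPKM in the same order of conditions. Srxn1 read 35.9, 34.1 and 31.9 FPKM, then 35.6, 34.2 and 34.0, then 34.1, 34.995 and 32.3, then 36.8, 35.1 and 32.8 FPKM. The low- and high-glucose libraries of Txnrd1, Srxn1 and Hmox1 overlapped.

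By role, the superoxide dismutases and the peroxiredoxins with sulfiredoxin had no call for glucose, and the 7 genes of the second group had averaged changes between -0.01 and 0.06. Prdx2 exons overlap those of Junb (173 bases) and Rnaseh2a (177 bases) on the opposite strand, and those of Hmox2, Prdx5, Gss, Gstm5 and G6pdx also share bases with an opposite gene of at least 10% of their counts. The strand setting of the counting is not given in the sources used here. The 5 genes of NADPH supply had changes between -0.09 and 0.03. Catalase (0.34, SE 0.304), Gsta4 (-0.49, SE 0.259) and Gstp1 (-0.48, SE 0.272), each under 100 counts on average, had wide errors. Gpx3, which was not tested, had 7, 5 and 6 counts at low glucose with vehicle, 7, 3 and 9 with TMAO, 1, 0 and 1 at high glucose with vehicle and 6, 4 and 4 with TMAO. The 3 high-glucose vehicle libraries were its lowest, at counts near the limit of 3.

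TMAO was compared with vehicle in the cells given low glucose, and none of the 41 genes passed the test. In edgeR 0 of 41 were called, beside 0.00616% of all genes (1 gene), and 0 had an unadjusted p under 0.05, beside 2.2% of all genes. DESeq2 and limma also called 0. For 35 of the 41 the 95% confidence interval lay inside a 1.2-fold change. Keap1 differed by 0.00 (95% CI -0.11 to 0.11) and Nfe2l2 by -0.03 (95% CI -0.16 to 0.10) on the log2 scale. Sod1, Gpx1, Txn1, Prdx1 and Gsr, the abundant members of their groups, had intervals inside 1.2-fold as well.

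At high glucose TMAO also gave 0 of 41 calls (background 0%), with 2 genes at an unadjusted p under 0.05 (5.35% of all genes) and 0 called by DESeq2 or limma. These were Taldo1 (-0.11, SE 0.052, adjusted p = 0.910) and Prdx2 (-0.10, SE 0.046, adjusted p = 0.910), and the vehicle and TMAO libraries of both overlapped. The 2 genes are named because of these values. Keap1 differed by -0.08 (95% CI -0.19 to 0.03) and Nfe2l2 by 0.01 (95% CI -0.12 to 0.14). For 34 of the 41 the interval lay inside a 1.2-fold change.

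**Figure D4:**
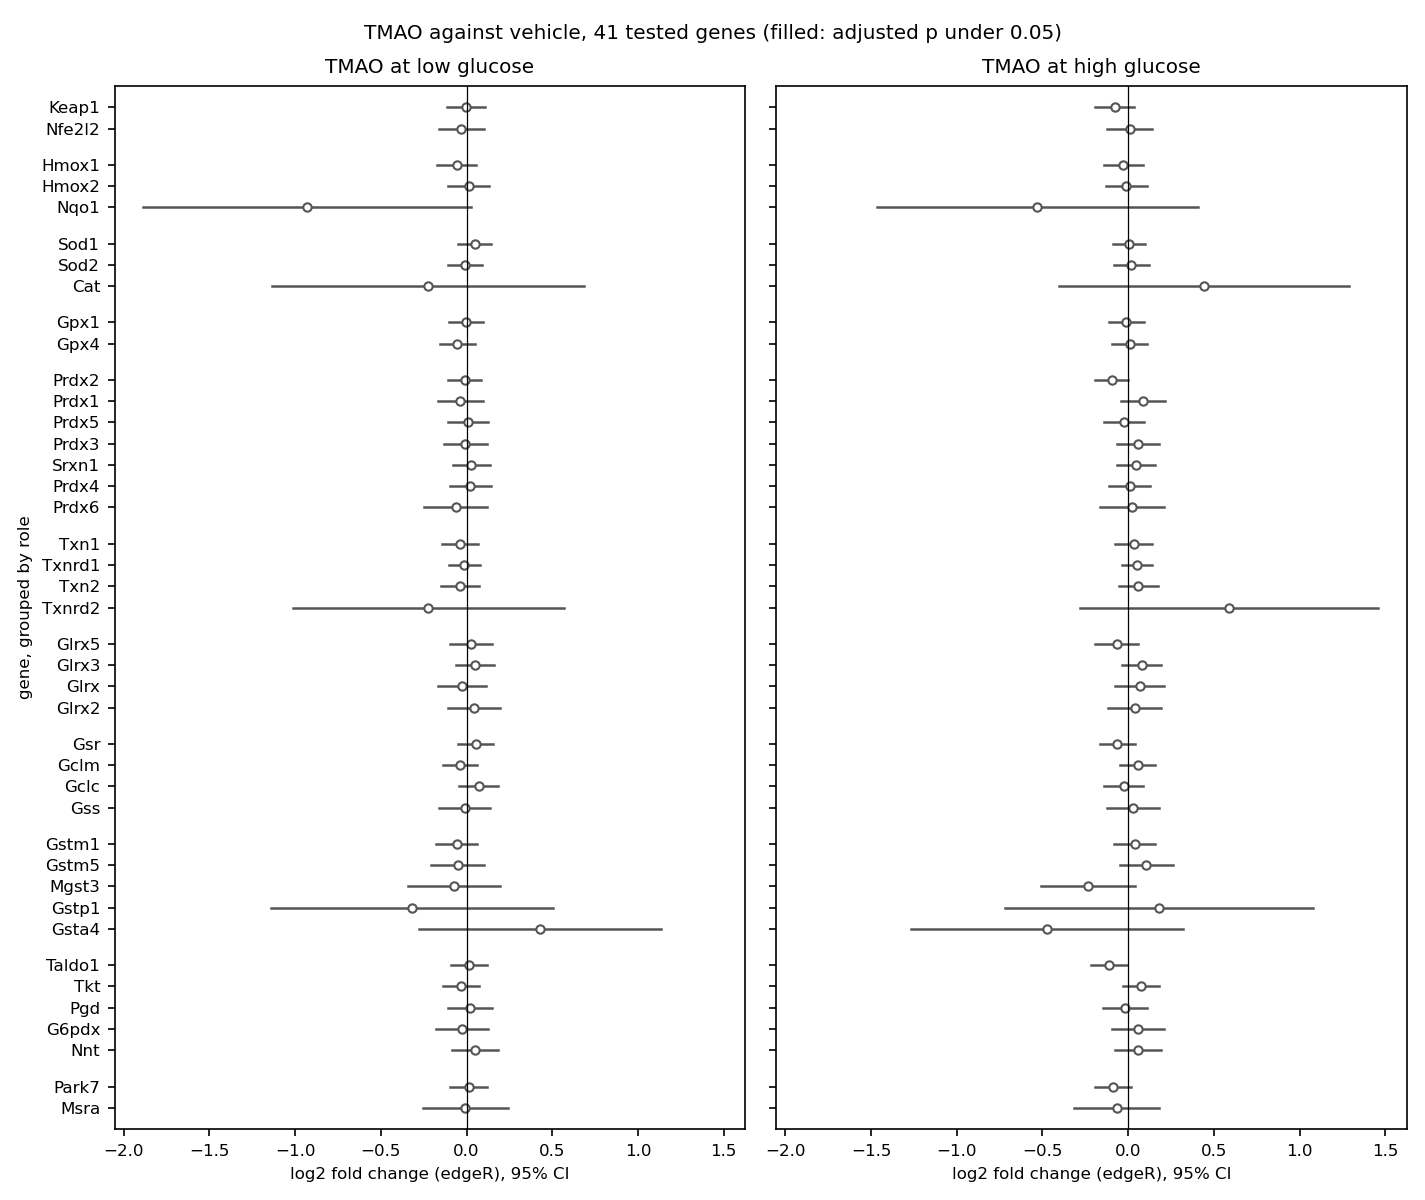
Log2 fold change for TMAO against vehicle (x axis, edgeR) with its 95% confidence interval for the 41 tested genes (y axis, grouped by role), at low and at high glucose. No point is filled, since none had an adjusted p under 0.05, and the wide intervals belong to Nqo1, Cat, Txnrd2, Gstp1 and Gsta4.

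Averaged over the glucose levels, TMAO gave 0 of 41 calls in edgeR (background 0%), in DESeq2 and in limma. Only Nqo1 had an unadjusted p under 0.05 in edgeR, beside 3.62% of all genes. Nqo1 read 0.508, 0.269 and 0.449 FPKM at low glucose with vehicle, 0.166, 0.297 and 0.172 with TMAO, 0.344, 0.474 and 0.302 at high glucose with vehicle and 0.191, 0.402 and 0.150 with TMAO. The vehicle and TMAO libraries overlapped at both glucose levels, and the averaged log2 fold change was -0.73 (SE 0.327, adjusted p = 0.9999). In an exact two-sided permutation test within each glucose level on log2(FPKM + 1), Nqo1 had an unadjusted p of 0.03 and was the only 1 of the 12 genes given by library with a p under 0.05. At 4 to 15 counts per library a change of this gene was not resolved. None of the 41 genes was without overlap between the 6 TMAO and the 6 vehicle libraries, beside 0.136% of all genes. For 35 of the 41 the averaged interval lay inside a 1.2-fold change.

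The interaction asked whether TMAO changed the response to glucose. It gave 0 of 41 calls (background 0%), with 0 at an unadjusted p under 0.05 (3.36% of all genes) and 0 called by DESeq2 or limma. The intervals of this comparison were wider, and 26 of the 41 lay inside a 1.2-fold difference. The estimate for Nfe2l2 was 0.04 (95% CI -0.15 to 0.23) and that for Gclc -0.10 (95% CI -0.26 to 0.06). The largest estimate in size among genes with 100 counts was that of Txnrd2, 0.81 (95% CI -0.36 to 1.99).

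The wider pathway was read from 6 lists of 100 further genes, of which 69 were tested. For glucose averaged, 9 of the 69 were called, 7 higher and 2 lower, beside 8.19% of all genes. These lists, like the 45 genes, were drawn up with results of these data known. Of the partners and regulators of NRF2, 4 of 9 tested genes were called, all higher, beside 8.19% of all genes. The small MAF proteins pair with NRF2 on antioxidant response elements, and BACH1 pairs with the same proteins and represses the same elements. Maff rose from 17.04 ± 1.7 FPKM (SD, n = 3) at low glucose with vehicle to 32.4 ± 1.8 FPKM at high glucose with vehicle, and from 17.9 ± 0.71 to 32.1 ± 0.66 FPKM with TMAO. Its averaged log2 fold change was 0.89 (SE 0.045, adjusted p = 1.2e-15). Bach1 rose from 20.5 ± 0.83 to 29.3 ± 1.3 FPKM with vehicle and from 21.0003 ± 1.8 to 30.5 ± 1.3 FPKM with TMAO, a change of 0.53 (SE 0.038, adjusted p = 7.6e-12). Mafg rose by 0.30 (SE 0.030, adjusted p = 9.32e-09) and Mafk by 0.27 (SE 0.044, adjusted p = 6.47e-05). Mafg was called in both treatments, at 0.36 with vehicle and 0.24 with TMAO. Mafk was called with vehicle (0.37, SE 0.062, adjusted p = 0.000211) and not with TMAO (0.17, SE 0.062, adjusted p = 0.158), and the difference between these effects did not pass (-0.20, SE 0.087, adjusted p = 0.9998). The low- and high-glucose libraries of all 4 genes did not overlap. Exons of Mafk share 169 bases with Tmem184a on the opposite strand, and Mafg shares 124 bases with Sirt7 on its own strand.

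Of the other NRF2 targets and cystine uptake genes, 3 of 15 were called, beside the same 8.19%. Both chains of the cystine transporter, which brings in the building block that limits glutathione, rose: Slc3a2 by 0.28 (SE 0.032, adjusted p = 1.91e-07) and Slc7a11 by 0.37 (SE 0.094, adjusted p = 0.0389). The libraries of Slc7a11 overlapped, at 2.54 to 3.29 FPKM (low glucose) and 3.03 to 4.23 FPKM (high glucose), and its call was lost in 6 of the 12 fits that left out a library. Osgin1, a growth inhibitor induced by oxidative stress, fell by 0.32 (SE 0.064, adjusted p = 0.000729). Of the thioredoxin, repair and superoxide genes, 1 of 15 was called, a share not above that background: Txnip, which binds and inhibits thioredoxin, fell by 0.76 (SE 0.045, adjusted p = 2.94e-13), from 36.0 ± 0.83 to 20.6 ± 2.1 FPKM with vehicle and from 34.7 ± 2.2 to 21.03 ± 1.3 FPKM with TMAO. Of the producers of superoxide and peroxide, 1 of 6 was called (background 8.19%), Ero1l, the oxidase of protein folding, which rose by 0.15 (SE 0.042, adjusted p = 0.0217) and lost its call in 5 of the 12 fits. The other glutathione genes (0 of 15) and the other NADPH genes (0 of 9) had no call in edgeR, DESeq2 or limma, with 1 gene of each list at an unadjusted p under 0.05 (20.1% of all genes). With TMAO 0 of the 69 genes were called by edgeR, DESeq2 or limma at low glucose, at high glucose, averaged or in the interaction. Over all genes edgeR called 0.00616%, 0%, 0% and 0% in these comparisons. Of the 69, 1, 3, 2 and 1 had an unadjusted p under 0.05 in edgeR, beside 2.2%, 5.35%, 3.62% and 3.36% of all genes.

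**Figure D5:**
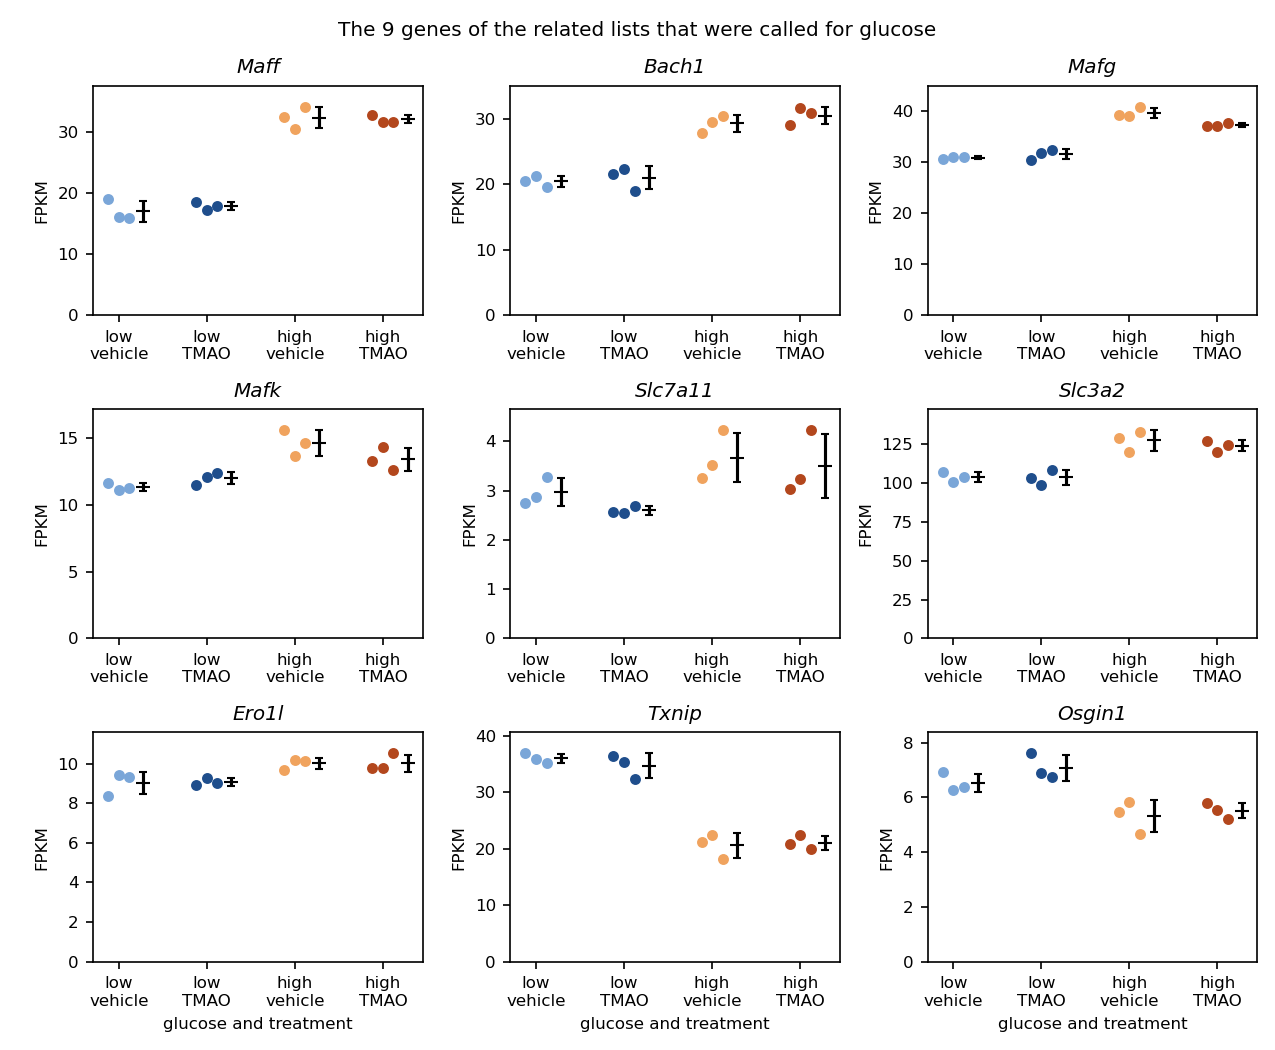
FPKM (y axes from 0) of the 9 genes of the related lists called for glucose, in the 4 conditions (x axes); points are libraries, and the bar beside them is the mean with its SD (n = 3). Maff, Bach1, Mafg, Mafk, Slc3a2 and Ero1l are higher and Txnip and Osgin1 lower in all 6 high-glucose libraries, while Slc7a11 overlaps between the glucose levels.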

How the data were processed

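RNA-seq of MIN6 cells was analysed in 4 conditions of 3 libraries. The authors deposited raw fragment counts per gene and FPKM values. The submitters' processing notes name HISAT2 2.0.5, featureCounts 1.5.0-p3, DESeq2 1.16.1 and mm10; the strand setting is not given in the sources used here. The RNA input is 1 µg in the labels and a larger amount in the paper's methods. FPKM equalled counts per gene length and a library total within 1.37% of the count sum. Groups came from the labels; a shared batch is not named there, and the p-values measure the spread between these cultures.

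Counts were fitted in R 4.3.3 with edgeR 4.0.16 (filterByExpr, TMM, robust quasi-likelihood F test, all 12 libraries, 7 comparisons), with Benjamini-Hochberg adjustment over 16222 genes and calls at an adjusted p under 0.05. SE is the log2 fold change divided by the square root of F. DESeq2 1.42.0, limma 3.58.1 (log2 of FPKM with 1 or 0.1 added, which understates changes of low genes), other filters and scalings, the replicate block and each library left out were alternatives. The fits were tested on simulated data. Same-numbered libraries deviated together, with every correlation above 0.1, between vehicle and TMAO at low glucose (0.171 to 0.448) and between low-glucose vehicle and high-glucose TMAO (0.101 to 0.148), which were not compared directly; the other 4 pairings of conditions did not meet this. Gene coordinates equalled those of GENCODE M21 for 41 of the 45 genes. Promoter windows are from RefSeq (GRCm38.p6). Figures used matplotlib 3.10.9.

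The 45 genes and the lists were chosen with earlier results of these data known. Values by library are given for the called genes, for Nfe2l2, Keap1, Nqo1, Hmox1, Gclc, Gclm, Txnrd1 and Srxn1, and for the lowest p for glucose averaged up to 8 genes. A planned exact permutation test over these genes is reported for TMAO and not for glucose, since most of them were chosen on the glucose comparison. Genes of the related lists are named where called.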

Additional observations from a re-analysis of the deposited data

How the results depend on the processing

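Among the 45 genes, 0 were called under every alternative for glucose with vehicle, the 3 TMAO comparisons and the interaction. For glucose averaged, the 2 calls became 0 with limma on log2(FPKM + 1) without a filter (Keap1 adjusted p = 0.0555, Nfe2l2 0.113) and ranged from 1 to 3 as each library was left out; Glrx was a further call with library totals alone, with no filter and with the replicate block (adjusted p = 0.0368, 0.0190 and 0.0325). For glucose with TMAO, the 1 call became 0 with limma on log2(FPKM + 1), on log2(FPKM + 0.1) and without a filter (Keap1 adjusted p 0.0796 to 0.182), and ranged from 0 to 2 without each library. The cause was not tested. Keap1 and Nfe2l2 kept their direction in each alternative. The 1 gene of the TMAO permutation test was also 1 with a pseudocount of 0.1.

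Over all genes, limma without a filter called 235 for glucose with vehicle (main 536), 218 with TMAO (main 591) and 682 averaged (main 1328), and limma on log2(FPKM + 1) and log2(FPKM + 0.1) called 346 and 330 with TMAO. Leaving out a library gave 328 to 475 with vehicle and 344 to 657 with TMAO. For the TMAO comparisons and the interaction the counts were 0 to 13. Calls among the related genes for glucose averaged, an outcome added after the data were seen, numbered 7 to 11.

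Same-numbered libraries counted as pairs for TMAO at low glucose, where the block changed no call among the 45 genes, and not for the other comparisons: over all conditions 10 of 18 same-numbered pairs correlated above 0.1 (range -0.112 to 0.448), although 11 of 12 libraries correlated best with their own number. With the replicate block 717, 783 and 1678 genes were called for glucose with vehicle, with TMAO and averaged, 0, 1 and 3 of them among the 45; the counts for TMAO at low glucose, at high glucose, averaged and the interaction were 1, 0, 0 and 0 genes, 0 among the 45. Depth limits the genes with few counts (Nqo1, Cat, Gpx3, Gsta4).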
